A study of Homo sapiens with 6 samples.

Results

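The proteasome genes described here are the protein-coding genes whose symbol starts with PSM, a letter from A to G and a digit, taken from a table of gene expression in the established human line NCI-H1299, labelled as lung adenocarcinoma. Of 28495 genes in the table, 76 had such a symbol. Of these, 27 were pseudogenes, antisense genes or other genes that code for no protein, and 49 were kept. Among the 49, PSMC3IP and PSME3IP1 carry the name of a subunit they bind and are no proteasome parts, which leaves 47 genes for subunits, activators, the inhibitor and assembly chaperones. PSMA8, the alpha subunit known from the testis, is not among the genes listed.

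RNA was sequenced from 3 libraries in which complement factor B (CFB), a serine protease of the alternative complement pathway, was silenced (sh-CFB) and from 3 control libraries (sh-NC). All 6 came from the same line with no other treatment named. The titles name short hairpins, while the columns of the table carry names of the kind used for siRNA. Whether replicates came from separate cultures or clones is stated nowhere in the labels, so the p-values measure the spread between these libraries, which may be technical.

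Values are FPKM, reads scaled to the length of the gene and to the reads of the library. The reads behind them could be recovered, and the totals were 26.2 to 38.4 M in sh-CFB against 32.9 to 40.0 M in sh-NC. CFB itself had 0, 0 and 2 reads in sh-CFB against 1, 6 and 5 in sh-NC, so its level gives hardly any check of the labels. The epithelial keratins KRT8 and KRT18 were present, with epithelial marker sums of 178 to 258 FPKM in sh-CFB against 170 to 254 in sh-NC, and the other epithelial markers EPCAM and CDH1 averaged under 0.5. None of 4 markers of the lung adenocarcinoma lineage reached a mean of 0.5 FPKM, and their sum was 0.269 to 0.371 in sh-CFB against 0.319 to 0.679 in sh-NC. No immune, fibroblast or endothelial marker that is in the table reached a mean of 0.5. Libraries also differed in how their values depended on GC content. Across genes, the Spearman correlation between a library's deviation from the gene mean and GC content was 0.60 in sh-CFB replicate 1, -0.10 and -0.16 in sh-CFB replicates 2 and 3, and -0.55, -0.25 and 0.23 in sh-NC replicates 1, 2 and 3. Results are therefore given with and without a correction for GC content and gene length where it changes them.

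The 26S proteasome is the protease that degrades proteins tagged with ubiquitin. Its 20S core is a barrel of stacked rings, alpha subunits outside and beta subunits inside, and its 19S cap holds a base with a ring of ATPases that unfold the substrate and a lid that removes ubiquitin. Under interferon, PSMB8, PSMB9 and PSMB10 take the place of the catalytic beta subunits and form the immunoproteasome, and the transcription factor NRF1, encoded by NFE2L1, is known to raise subunit genes together through antioxidant response elements in their promoters.

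Promoter windows of RefSeq, from 250 bases before to 50 bases after a gene's start on GRCh38.p14, were found for 43 of the 49 genes and for 27305 genes in all. The 27305 were not limited to genes expressed in this line, while most members were expressed, so the shares below compare unlike sets. The stretches shown hold motifs that relate to the classes described here. Antioxidant response elements (ARE) were searched as TGACNNNGC on both strands, and 15 of the 43 genes (34.9%) held one against 16.1% of all genes. Of the genes that fell in sh-CFB (described with the expression values), 4 of 16 with a window held it, and of the other members 11 of 27 did. The 4 are shown on the strand of each gene, 5′ to 3′, with the match in capitals (PSMC4 at chr19:39971182-39971211, plus strand, PSMC5 at chr17:63827654-63827683, plus strand, PSMD1 at chr2:231056887-231056916, plus strand, and PSMG1 at chr21:39183615-39183644, minus strand).
PSMC4: acagaggccgGCTTGGTCActatggaggag
PSMC5: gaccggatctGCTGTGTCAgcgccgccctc
PSMD1: ggcggcctgaggaggcgacTGACTGAGCag
PSMG1: gcccagggcaTGACAGCGCgggcgggcggt
In PSMC5 and PSMG1 the match began 57 and 183 bases before the start, while in PSMC4 and PSMD1 it lay after it.

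An interferon-stimulated response element (ISRE, searched as AAANNGAAA on both strands) was held by 8 of the 43 genes (18.6%) against 12.6% of all. These were 0 of the 16 that fell and 8 of the 27 others. They included PSMB8, PSMB10 and both subunits of the interferon-inducible activator PA28, PSME1 and PSME2 (PSMB8 at chr6:32844032-32844061, PSMB10 at chr16:67936851-67936880 and PSME2 at chr14:24146618-24146647, all on the minus strand, and PSME1 at chr14:24136189-24136218 on the plus strand).
PSMB8: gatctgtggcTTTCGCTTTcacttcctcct
PSMB10: ggtaaaggcgAAAGCGAAAgcaggaagtac
PSME1: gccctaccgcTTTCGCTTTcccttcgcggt
PSME2: ctggggagtgAAAGCGAAAgcccgggcgac
The capitals mark the match, which lay on the opposite strand in PSMB8 and PSME1. The rest of the 8 were PSMA4, PSMB4, PSMD6 and PSMG4, and no window of PSMB9 held a match.

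The core of the ETS motif, CCGGAAGT, was held by 10 of the 43 genes (23.3%) against 4.95% of all genes. It was found in 4 of the 16 that fell and in 6 of the 27 others. The windows of PSMD13, which encodes a lid subunit, and PSMD14, which encodes the lid's deubiquitinase, held it close to the start (PSMD13 at chr11:236953-236982 and PSMD14 at chr2:161308410-161308439, both on the plus strand).
PSMD13: gccgctcggcgCCGGAAGTgagtgagcatt
PSMD14: aactagtgaacCCGGAAGTgcttcgcggcg
The match, in capitals, began 12 bases before the start of PSMD13 and 4 bases before that of PSMD14. A match says only that these letters stand in the window. CCAAT was held by 22 of the 43 (51.2%) against 39.7% of all, TATAAA by 4 (9.30%) against 13.99%, GAANNTTC (heat shock element) by 1 (2.33%) against 8.21%, TTCNNNGAA (GAS) by 7 (16.3%) against 9.38%, TGANTCA (AP-1) by 3 (6.98%) against 9.37%, and TGACGTCA (CRE) by 0 of 43 against 2.25%.

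Of 46 members with a mean of at least 0.5 FPKM, 18 fell in sh-CFB at an adjusted p under 0.05 and 0 rose (limma on log2(FPKM + 0.5), Benjamini-Hochberg over 12466 genes). Differences are sh-CFB minus sh-NC on this log2 scale throughout. Across all tested genes, 5.71% fell and 1.74% rose, so the share of members that fell, 39.1%, was above the background. Of the 18, 10 encode subunits of the 19S cap, among them the ATPase PSMC4 and the lid scaffold PSMD11. The largest fall on this scale was that of PSME3, an activator of the core. At an unadjusted limma p under 0.05, 29 members were lower and 0 higher. The share of all tested genes at that threshold is not given here or below, so such counts have no background beside them. Limma voom on the recovered reads called 17 members lower and 0 higher, beside 677 genes called in all in either direction. The 46 had a median difference of -0.46 on the log2 scale against -0.15 for all tested genes, and 42 of 46 lay below 0 against 67.7% of all. The groups did not overlap, with sh-CFB lower, in 32 of 46 members against 23.6% of all tested genes, and with sh-CFB higher in 0 of 46 against 10%. Without PSMC3IP and PSME3IP1, 16 of 44 fell.

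Leaving out 1 library moved the count of 18. Without sh-CFB replicate 1, 2 or 3 the fits gave 13, 1 and 12 members lower, beside 511, 39 and 400 genes called in all. Without sh-NC replicate 1, 2 or 3 they gave 9, 0 and 11, beside 249, 20 and 540. Genes called in all count both directions. The 18 genes lay below 0 in each of these fits, but their groups did not overlap, so leaving out 1 library could not change the sign. PSMC4 passed in 5 of these fits, and PSMA7, PSMD1, PSMD13, PSMD14 and PSMC3IP passed in none of them. Without both replicate 1 libraries, which lay furthest apart in their dependence on GC content, 15 were lower, beside 694 genes called in all. The GC and length correction left 15 members lower where 6.07% of all genes were lower, and 0 higher where 4.67% were higher. Of those 15, 13 were among the 18, and PSMC2 and PSMD10 were added. Scaling by median-of-ratios factors left 4 (PSMA5, PSMD1, PSMD11 and PSME3) where 1.11% were lower.

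**Figure D1:**
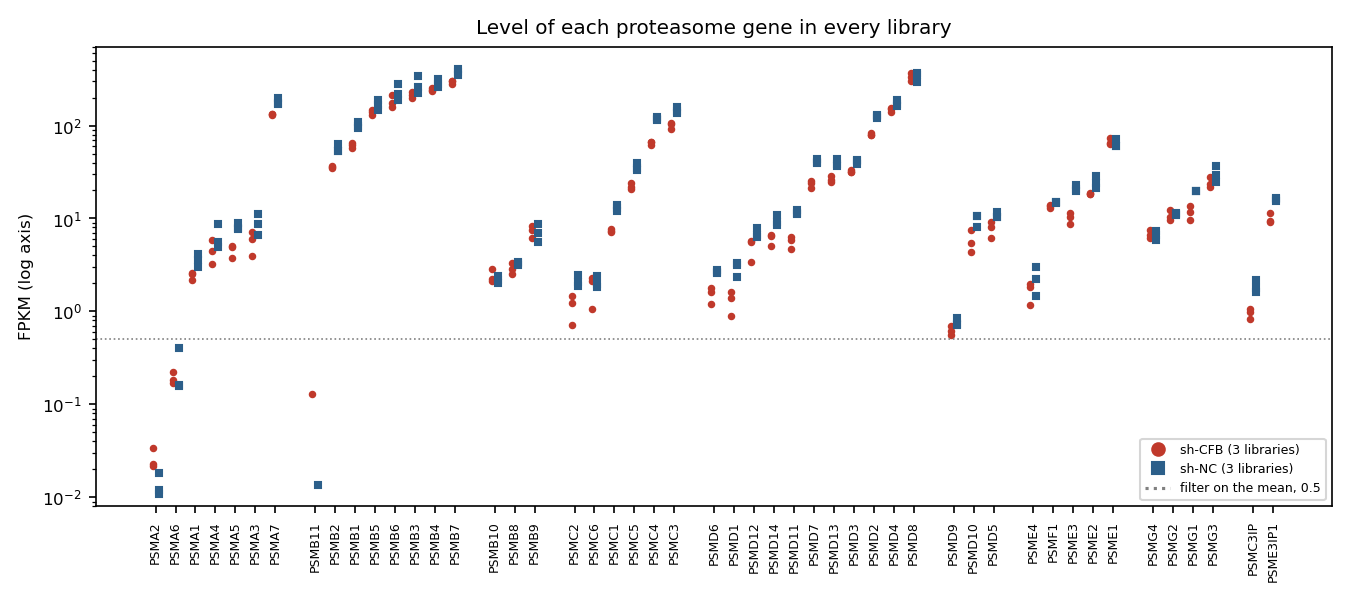
FPKM of each of the 49 genes (log axis) in the 3 sh-CFB libraries (circles) and the 3 sh-NC libraries (squares), in blocks by class and in order of mean level within a class, with values of 0 left out and the filter on the mean drawn at 0.5. Levels ran from PSMD8, at a mean of 335 FPKM, to PSMA2, PSMA6 and PSMB11 below the line.

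Levels, which FPKM gives per length, differed widely between subunits of the complex. Of the 47 proteasome genes, 10 averaged at least 100 FPKM, 15 were between 10 and 100, 19 between 0.5 and 10, and 3 under 0.5. The highest were PSMD8, a lid subunit, at 335 FPKM and PSMB7, the constitutive subunit with trypsin-like activity, at 334. The lowest were PSMA2, with 0.0199 FPKM, PSMB11, a beta subunit of the thymus, with 0.0239, and PSMA6 with 0.216.

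The 20S core needs PSMA2 and PSMA6 in every alpha ring, and both were below the filter. PSMA2 had 5, 6 and 11 reads in sh-CFB against 6, 4 and 3 in sh-NC, while PSMA6 had 29, 48 and 46 against 103, 42 and 34. In GENCODE 29, 14.6% of the exon bases of PSMA2 and 14.1% of those of PSMA6 are shared with a protein-coding gene on the same strand, and the annotation lists 3 and 4 pseudogenes of them. The part of this overlap in the low values was not tested, and neither gene entered the fit. PSMB11 had 0, 8 and 0 reads in sh-CFB against 0, 1 and 0 in sh-NC, a level of a few reads in which no difference can be read. Over the 46 tested members, mean FPKM correlated with the length behind FPKM at a Spearman rho of -0.61, a description across genes that share the 6 libraries. FPKM is divided by that same length, so a negative rho is partly built in.

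Of the alpha ring, which forms the gate of the core, 2 of 5 tested genes fell, with a class median of -0.47. PSMA5 was at 3.78, 4.93 and 5.12 FPKM in sh-CFB against 8.98, 7.90 and 7.66 in sh-NC. It fell by 0.77 (SE 0.15, limma adjusted p = 0.0254), and the groups did not overlap. PSMA7, the most abundant alpha gene, was at 132, 134 and 131 FPKM against 171, 175 and 197, and fell by 0.45 (SE 0.09, limma adjusted p = 0.0312). The spread within sh-CFB was small beside the difference. PSMA1, PSMA3 and PSMA4 were -0.47, -0.60 and -0.46 and did not pass, and PSMA3 and PSMA4 overlapped between the groups. PSMA1 shares 24.7% of its exon bases with another gene on the same strand.

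Among the 7 tested constitutive beta genes, 2 fell and the class median was -0.34. PSMB1, a subunit without catalytic activity, was at 56.7, 62.3 and 65.0 FPKM in sh-CFB against 94.7, 98.3 and 110 in sh-NC, and fell by 0.71 (SE 0.10, limma adjusted p = 0.0129). PSMB2, also without catalytic activity, was at 37.0, 36.1 and 35.1 against 53.1, 52.7 and 63.7 FPKM and fell by 0.64 (SE 0.10, limma adjusted p = 0.0156). Under the GC and length correction PSMB2 no longer passed (-0.37, limma adjusted p = 0.231).

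The 3 subunits that carry the catalytic sites did not pass in the fit to FPKM as deposited. PSMB5, with chymotrypsin-like activity, was at 145.8, 140 and 129 FPKM in sh-CFB against 146.4, 165 and 188 in sh-NC (log2 difference -0.26, limma adjusted p = 0.200). PSMB6, with caspase-like activity, was at 211, 174 and 159 against 188, 221 and 277 FPKM (-0.33, limma adjusted p = 0.261). PSMB7 was at 278, 304 and 299 against 346, 373 and 401 (-0.34, limma adjusted p = 0.0802). It was called lower with FPKM scaled to equal totals and with quantile normalization, and not in the other alternatives. PSMB5 and PSMB7 did not overlap between groups, and PSMB6 did. The structural PSMB3 and PSMB4 were at -0.34 and -0.22.

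The immunoproteasome subunits were low, and 0 of 3 passed the limma test (0 of 3 at an unadjusted p under 0.05, and 0 with limma voom). PSMB8, the inducible counterpart of PSMB5, was at 2.83, 3.35 and 2.56 FPKM in sh-CFB against 3.17, 3.28 and 3.38 in sh-NC (log2 difference -0.15, 95% interval -0.49 to 0.19). PSMB9, the counterpart of PSMB6, was at 8.27, 7.60 and 6.18 against 5.61, 7.03 and 8.74 FPKM (0.05, interval -0.37 to 0.47). PSMB10, the counterpart of PSMB7, was at 2.88, 2.12 and 2.22 against 2.39, 2.03 and 2.18 (0.10, interval -0.28 to 0.48). The groups overlapped in all 3, and the sign of each changed under at least 1 scaling or correction (PSMB8 was 0.02 under median-of-ratios factors, PSMB9 was -0.00192 with FPKM scaled to equal totals, and PSMB10 was -0.00284 with the GC and length correction). PSMB8 shares 20.6% of its exon bases with genes on the opposite strand, among them its neighbour PSMB9, and PSMB10 shares 34.8% with a gene on the same strand.

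The inducible subunits were far below their constitutive counterparts. PSMB9 was 3.92, 4.37 and 3.89% of PSMB6 in sh-CFB against 2.98, 3.19 and 3.15% in sh-NC, and these did not overlap. PSMB10 was 1.04, 0.696 and 0.743% of PSMB7 against 0.689, 0.544 and 0.545%, also without overlap, though 0.696 and 0.689 were close. PSMB8 was 1.94, 2.39 and 1.99% of PSMB5 against 2.16, 1.98 and 1.80%, with overlap. The GC and length correction was not applied to these or later ratios. With it, the log2 difference of PSMB10 went from 0.10 to -0.00284 and that of PSMB7 from -0.34 to -0.13. PSMB9 went from 0.05 to 0.35 and PSMB6 from -0.33 to -0.26, while PSMB8 went from -0.15 to 0.02 and PSMB5 from -0.26 to -0.11. For 3 libraries against 3, an exact two-sided permutation test cannot give a p below 0.1, and no other test was run on these ratios.

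**Figure D2:**
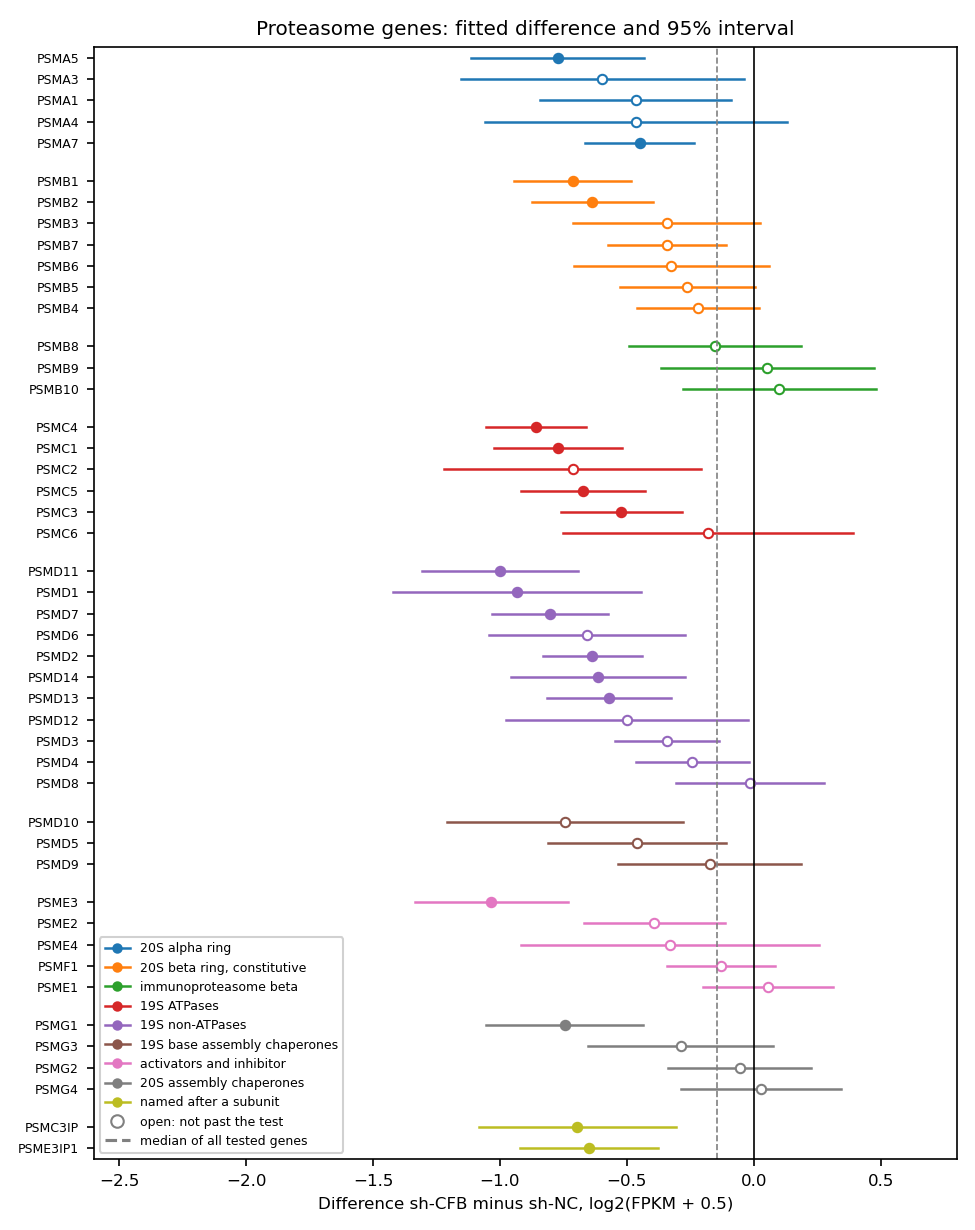
Fitted difference, sh-CFB minus sh-NC in log2(FPKM + 0.5), with its 95% interval for the 46 tested genes by class, filled where the adjusted p was under 0.05. The dashed line is the median of all tested genes, -0.15, and the 17 19S genes have a median of -0.64 while the 3 immunoproteasome genes lie close to the line or to its right.

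Of the 17 genes of the 19S cap, 10 fell, with a median of -0.64, or -0.49 relative to the median of all tested genes. The counts of classes were not tested against each other. Of the 6 ATPases of the base, 4 fell, with a class median of -0.69. PSMC4 (RPT3) on chromosome 19 was at 61.9, 66.8 and 66.4 FPKM in sh-CFB against 118, 114 and 123 in sh-NC. It fell by 0.86 (SE 0.09, limma adjusted p = 0.00727), the lowest adjusted p of the members, to 55.2% of its control level. With the GC and length correction it was at -0.75.

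PSMC1 (RPT2) was at 7.08, 7.36 and 7.78 FPKM against 13.0, 13.96 and 12.0, and fell by 0.77 (SE 0.11, limma adjusted p = 0.0130). In GENCODE 29, 75.8% of its exon bases overlap NRDE2 on the opposite strand and it has 13 pseudogenes, so its value is uncertain. PSMC5 (RPT6) was at 20.7, 21.9 and 24.1 against 33.5, 34.6 and 39.2 FPKM and fell by 0.67 (SE 0.11, limma adjusted p = 0.0148). It no longer passed with the GC and length correction (-0.37, limma adjusted p = 0.0772). PSMC3 (RPT5), the most abundant ATPase gene, was at 107, 103 and 92.8 against 135, 142 and 158 FPKM and fell by 0.52 (SE 0.10, limma adjusted p = 0.0276). The ranges of the groups were apart for PSMC1, PSMC3, PSMC4 and PSMC5. PSMC2 (RPT1) was at -0.71 (limma adjusted p = 0.0901), and PSMC6 (RPT4) at -0.18 with sh-CFB values of 1.06, 2.30 and 2.13 FPKM around the sh-NC values of 2.39, 1.96 and 1.84.

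Of the 11 other cap subunits, 6 fell, with a class median of -0.61. PSMD11 (RPN6), a lid scaffold, was at 4.69, 5.84 and 6.30 FPKM in sh-CFB against 12.2, 11.2 and 11.5 in sh-NC, and fell by 0.9999 (SE 0.13, limma adjusted p = 0.0118). PSMD1 (RPN2), a scaffold of the base, was at 0.896, 1.41 and 1.62 against 3.29, 3.13 and 2.36 and fell by 0.93 (SE 0.21, limma adjusted p = 0.0415). Both ranges were apart, and PSMD1 had the widest interval of the called members.

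PSMD7 (RPN8), the lid partner of the deubiquitinase, was at 21.5, 24.3 and 25.1 FPKM against 43.9, 40.9 and 39.9, and fell by 0.80 (SE 0.10, limma adjusted p = 0.0106). Of its exon bases, 30.7% overlap a transcript on the opposite strand. PSMD14 (RPN11), that deubiquitinase, was at 5.06, 6.53 and 6.58 against 10.8, 9.09 and 8.59 FPKM and fell by 0.61 (SE 0.15, limma adjusted p = 0.0482). Its groups did not overlap, but with the GC and length correction it was at -0.46 (limma adjusted p = 0.0542). PSMD2 (RPN1), the base scaffold that binds ubiquitin shuttles, was at 78.9, 83.9 and 79.3 FPKM against 121, 130 and 126 and fell by 0.64 (SE 0.08, limma adjusted p = 0.0117). PSMD13 (RPN9) was at 24.6, 28.9 and 26.2 against 36.8, 39.0 and 43.4 and fell by 0.57 (SE 0.11, limma adjusted p = 0.0233). With the GC and length correction PSMD13 did not pass (-0.28, limma adjusted p = 0.162).

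The remaining cap genes did not pass in the fit to FPKM as deposited. PSMD8 (RPN12), the most abundant, was at 367, 329 and 301 FPKM in sh-CFB against 294, 348 and 369 in sh-NC, a difference of -0.02 with an interval of -0.31 to 0.28. PSMD3, PSMD4, PSMD6 and PSMD12 were at -0.34, -0.24, -0.66 and -0.50, and in each of them the groups did not overlap. PSMD3 was called lower with a filter at a mean of 2 and with FPKM scaled to equal totals. PSMD6 was called lower with that filter, with quantile normalization and with limma voom. PSMD4 (RPN10) is a ubiquitin receptor.

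**Figure D3:**
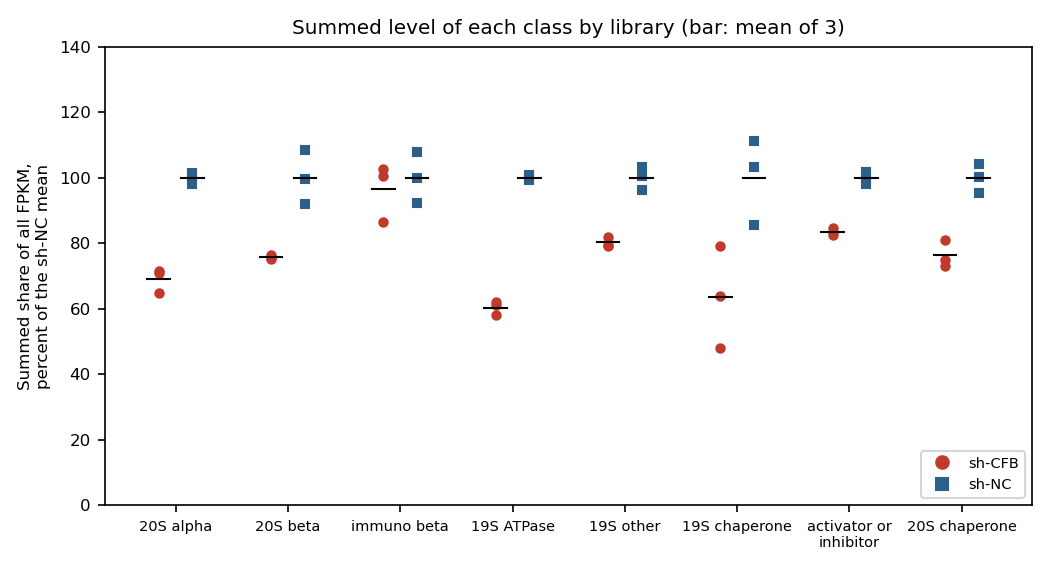
Summed share of all FPKM for 8 classes in every library, without PSMC3IP and PSME3IP1, as a percent of the class's sh-NC mean (circles sh-CFB, squares sh-NC, bar the mean of 3). Among the classes drawn, the ATPases have the lowest mean in sh-CFB with the groups well apart, and the immunoproteasome genes overlap.

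Read as a share of all FPKM of a library, the 49 genes made up 0.705, 0.724 and 0.716% in sh-CFB against 0.907, 0.956 and 0.994% in sh-NC. The ATPase genes made up 0.0573, 0.0612 and 0.0603% against 0.0987, 0.0981 and 0.0996%, and the alpha genes 0.0422, 0.0466 and 0.0462% against 0.0661, 0.0639 and 0.0653%. Neither overlapped between groups. The immunoproteasome genes made up 0.00403, 0.00395 and 0.00340% against 0.00362, 0.00393 and 0.00423%, and these overlapped. In bulk RNA, less RNA per cell of a class and fewer cells that express it cannot be told apart.

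The chaperones that build the base, PSMD5, PSMD9 and PSMD10, held 0 of 3 genes that passed, with a median of -0.46 (2 of 3 at an unadjusted limma p under 0.05, 0 with limma voom). PSMD10 (gankyrin) was at 4.31, 5.41 and 7.43 FPKM in sh-CFB against 10.5, 10.6 and 8.15 in sh-NC (-0.74, limma adjusted p = 0.0648) and PSMD9 was at 0.608, 0.697 and 0.555 against 0.711, 0.854 and 0.727 (-0.17). Each of the 3 was lower in sh-CFB in every library.

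Of the activators and the inhibitor, 1 of 5 fell. PSME3, which encodes the nuclear activator PA28-gamma, was at 8.64, 10.3 and 11.6 FPKM in sh-CFB against 23.1, 20.8 and 19.7 in sh-NC. It fell by 1.03 (SE 0.13, limma adjusted p = 0.0106), the largest difference of the 46 members on this scale, to 48.8% of its control level. It held at -0.75 with the GC and length correction (limma adjusted p = 0.00461). The rank depended on the scale. With 0.1 added to FPKM in place of 0.5, PSMD1 was at -1.13 and PSME3 at -1.06, and with limma voom they were at -1.17 and -1.05. PSME1 (PA28-alpha) was at 73.0, 64.5 and 62.5 against 60.1, 60.7 and 71.9 FPKM (0.06, interval -0.20 to 0.31). PSME2 (PA28-beta), its partner, was at 18.5, 18.8 and 18.5 against 21.5, 24.2 and 28.6 (-0.39, limma adjusted p = 0.0887). Only PSME2 of this pair had groups that did not overlap.

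The ratio of PSME3 to PSME1 was 11.8, 15.9 and 18.5% in sh-CFB against 38.4, 34.3 and 27.5% in sh-NC, with no overlap. PSME4 (PA200), an activator linked to histone turnover, was at 1.18, 1.81 and 1.95 against 3.03, 2.22 and 1.47 FPKM (-0.33, limma adjusted p = 0.457). PSMF1 (PI31), the inhibitor of the core, was at 13.8, 13.1 and 14.04 against 14.8, 14.9 and 15.1 (-0.13, limma adjusted p = 0.425). PSMF1 did not overlap, but its sign changed under 3 of the scalings or corrections (0.07 under median-of-ratios factors).

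Of the chaperones that build the 20S core, 1 of 4 fell. PSMG1 (PAC1) was at 9.55, 11.8 and 13.5 FPKM in sh-CFB against 19.6, 19.7 and 19.7 in sh-NC and fell by 0.75 (SE 0.13, limma adjusted p = 0.0208). PSMG2 (PAC2), its partner in a heterodimer, was at 9.56, 10.3 and 12.4 against 11.4, 11.2 and 10.8 (-0.06, interval -0.34 to 0.22). The groups of PSMG1 were apart and those of PSMG2 were not. PSMG3 and PSMG4 were at -0.29 and 0.03.

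The 2 genes that are no subunits fell as well. PSMC3IP, a factor of meiotic recombination, was at 0.828, 0.988 and 1.06 FPKM in sh-CFB against 2.18, 1.63 and 1.79 in sh-NC (-0.69, SE 0.17, limma adjusted p = 0.0480), from a mean of 131 reads. PSME3IP1, which binds PSME3, was at 9.17, 9.50 and 11.6 against 16.5, 15.4 and 16.1 (-0.65, SE 0.12, limma adjusted p = 0.0217), and with the GC and length correction it did not pass (-0.35, limma adjusted p = 0.0589).

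**Figure D4:**
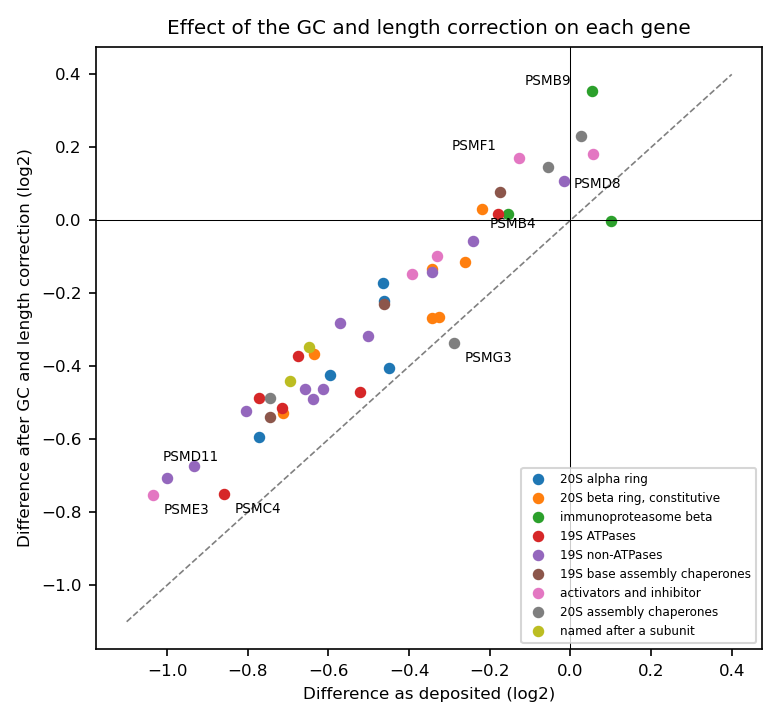
Difference of each of the 46 members as deposited (x axis) and after the correction for GC content and gene length (y axis), both on the log2 scale, coloured by class, with the dashed line marking equal values. All points but those of PSMG3 and PSMB10 lie above the line, and PSME3, PSMD11 and PSMC4 remain among the lowest.

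GC content moved with the differences. Over the 46 members, the difference correlated with GC content at a Spearman rho of 0.42, and over all tested genes with a GC value at 0.31. Members that fell had a median GC content of 47.7% and those that did not pass 50.4%, against 49.3% for all tested genes. With the correction the median of the members was -0.30, and that of all tested genes was 0.01. Relative to the median of all tested genes, the members' median was -0.32 as deposited and -0.31 with the correction.

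Other genes of the pathway were read from lists. Of 16 proteasome parts and shuttles outside the PSM names, 0 passed, with a median of -0.40 (8 of 16 at an unadjusted limma p under 0.05, 0 with limma voom). POMP, the maturation factor of the core, was at 26.4, 37.5 and 29.997 FPKM in sh-CFB against 55.5, 41.8 and 41.0 in sh-NC (-0.55, limma adjusted p = 0.0843), and ADRM1 (RPN13), another ubiquitin receptor of the cap, at 52.3, 42.6 and 39.0 against 43.2, 50.2 and 51.4 (-0.12, limma adjusted p = 0.615). UBE3C, a ubiquitin ligase at the proteasome, had the largest difference of the list (-0.59, limma adjusted p = 0.151). With the GC and length correction 2 of the 16 passed, POMP (-0.47, limma adjusted p = 0.0335) and USP14 (-0.37, limma adjusted p = 0.0333).

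Of the p97 segregase, which pulls ubiquitinated proteins out of complexes and membranes ahead of the proteasome, 3 of 9 genes fell, against 5.71% of all genes. VCP, p97 itself, was at 27.1, 31.2 and 30.2 FPKM in sh-CFB against 58.6, 58.8 and 59.3 in sh-NC and fell by 0.99 (SE 0.09, limma adjusted p = 0.00669). Its cofactors UFD1 and NPLOC4, which form a heterodimer, fell by 0.81 and 0.76. VCP passed without any 1 library but sh-NC replicate 2 (limma adjusted p = 0.0504 without it), and UFD1 and NPLOC4 did not pass without sh-CFB replicate 2 or sh-NC replicate 2, nor NPLOC4 without sh-NC replicate 1 (limma adjusted p = 0.0522 to 0.0986 over these fits). With the GC and length correction UFD1 did not pass (-0.51, limma adjusted p = 0.0723). With median-of-ratios factors 1 of 9, VCP, passed (UFD1 and NPLOC4 at limma adjusted p = 0.0632 and 0.0554). In VCP the 3 control values lay within 1 FPKM of each other, and the groups were far apart. The other 6 genes did not pass, among them UBXN1 at 0.30.

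Of the NRF1 axis, 0 of 7 genes passed (0 at an unadjusted limma p under 0.05, 0 with limma voom). NFE2L1 was at 33.3, 43.5 and 44.6 FPKM in sh-CFB against 63.5, 51.6 and 37.6 in sh-NC (-0.31, limma adjusted p = 0.378), and these overlapped. Of 8 interferon-linked genes of antigen presentation, 0 passed (1 at an unadjusted limma p under 0.05, 0 with limma voom), with ERAP1 the largest at -0.36. The gene at an unadjusted p under 0.05 was TAP1, a subunit of the peptide transporter, at 12.7, 14.1 and 14.1 FPKM in sh-CFB against 10.8, 12.4 and 10.7 in sh-NC (0.27, limma adjusted p = 0.177), without overlap.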

How the data were processed

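RNA was sequenced from poly(A) libraries made with a stranded kit, per the labels' protocols, in 3 sh-CFB and 3 sh-NC libraries. The authors deposited FPKM, 1 column per library, and every such column was used. The submitters' processing notes name featureCounts 2.0.1, STAR 2.7.3a, Trimmomatic 0.39 and FastQC 0.11.9 and the build GRCh38. Not given in the sources used here are the strand setting, the annotation release and how reads that fit several genes were treated. FPKM divides by a length that can be longer than the transcript made.

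Symbols came from the name table given with the reference (22492 of 28495 genes), and gene type, coordinates, GC content and exon overlap from GENCODE 29. Members and lists were chosen with earlier results of these data known. Differences were fitted with limma 3.58.1 (R 4.3.3, intensity trend) on log2(FPKM + 0.5) in genes with a mean of at least 0.5, and a fold on this scale understates the change of low genes. Values in every library are given for members past the test, for PSMB5 to PSMB10, for the activators and PSMF1, for class extremes and for members under the filter. Of the pathway lists, the genes past the test, the largest difference of a list with none, and NFE2L1, POMP and ADRM1 are named. UBXN1, TAP1 and USP14 were named after their values were seen. Another pathway list is not reported here. Whole reads were recovered from the steps of the values for nearly all genes (within 0.02 of a whole number) and tested with limma voom as an alternative, and 18 alternatives were run in all. The fit was tested on simulated data: it recovered the changes and their sign, and false calls ran somewhat above the nominal rate, nearly all among genes with under 100 reads on average. The called members averaged at least 131 reads. Simulated reads did not depend on GC content, as those of the real libraries did, so false calls of that kind were not measured. Intervals are at 95%. PCR copies were not told apart, so recovered reads cover counting error only.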

Additional observations from a re-analysis of the deposited data

How the results depend on the processing

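The 18 members that fell were also 18 with a pseudocount of 0.1 or 1. The count was 20 with a filter at a mean of 2, 18 with FPKM scaled to equal totals and 21 with quantile normalization. It was 17 with limma voom and 15 without both replicate 1 libraries. In this order, 1172, 819, 1101, 677 and 694 genes were called in all, and 17, 15, 18, 16 and 15 of the members were among the 18. The filter added PSMD3, PSMD6 and PSMD10, and equal totals PSMB7, PSMD3 and PSME2. Quantile normalization added PSMB7, PSMC2 and PSMD6, and limma voom PSMD6. In any of the 18 alternatives, 0 members were called higher. Without a filter on low values 9 members were lower and 324 genes were called in all, against 929. Median-of-ratios factors gave 4 and 206. The median of the members moved to -0.28 with median-of-ratios factors, -0.38 with quantile normalization and -0.30 with the GC and length correction. Relative to the median of all tested genes it ranged from -0.28 to -0.48 over all fits. Leaving out 1 library gave 0 to 13 members lower and 20 to 540 genes called in all. The 0 without sh-NC replicate 2 came beside 25 members lower at an unadjusted limma p under 0.05. Over the 18, limma adjusted p-values in that fit were 0.0600 to 0.175. All 18 differences were below 0 there, which was fixed in advance because their groups did not overlap.

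The replicate numbers are shared by the groups, but same-numbered libraries did not deviate together (correlations of -0.54, 0.07 and -0.45). The deviations also differed with GC content, and each group has only 3 libraries. These correlations therefore cannot decide whether same-numbered libraries were handled together. Fitted with the replicate block, 0 members and 0 genes in all were called, with limma adjusted p-values of 0.148 to 0.298 over the 18 and 24 members lower at an unadjusted p under 0.05. The replicate block with the GC and length correction also called 0 (21 at an unadjusted p under 0.05), with the median at -0.30.

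Signs changed only in genes that did not pass. With FPKM scaled to equal totals PSMB9 was -0.00192, PSME1 -0.00272 and PSMG4 -0.0278. With median-of-ratios factors PSMB8 was 0.0232, PSMD8 0.188, PSMF1 0.0701, PSMG2 0.140 and ADRM1 0.0846. With quantile normalization PSMB8 was 0.0242, PSMF1 0.00818 and PSMG2 0.0933. With the GC and length correction, with or without the replicate block, PSMB4 was 0.0308, PSMB10 -0.00284, PSMB8 0.0185, PSMC6 0.0174, PSMD8 0.107, PSMD9 0.0775, PSMF1 0.170 and PSMG2 0.147. Without both replicate 1 libraries PSMB9 was -0.181, PSMC6 0.177, PSME1 -0.0557, PSME4 0.0380, PSMG2 0.0377, PSMG4 -0.127, NFE2L1 0.000329 and ERAP1 0.0283. Leaving out 1 library gave PSMB9 -0.0970 to 0.201, PSMB10 -0.0129 to 0.172, PSMC6 -0.337 to 0.0874, PSMD8 -0.111 to 0.0524, PSME1 -0.0109 to 0.139, PSMG2 -0.156 to 0.0206 and PSMG4 -0.0519 to 0.0985. The causes were not tested.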

Other observations

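Of the 27 genes that match the naming pattern and code for no protein, 21 were pseudogenes, and 4 of the 27 averaged at least 0.5 FPKM. PSMA6P1, a processed pseudogene of PSMA6, was at 1.65, 2.26 and 0.773 FPKM in sh-CFB against 2.33, 1.31 and 1.52 in sh-NC. In FPKM it was above PSMA6 itself in 6 of 6 libraries, but FPKM divides by 741 bases for PSMA6P1 and 6506 for PSMA6. In reads, PSMA6P1 had 32, 56 and 22 in sh-CFB against 68, 39 and 37 in sh-NC. PSMA6 had 29, 48 and 46 against 103, 42 and 34, so neither was above the other throughout. PSMC1P1, a processed pseudogene of PSMC1, was at 3.44, 2.18 and 1.93 against 4.05, 4.03 and 2.92 FPKM.

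The ratio of PSME1 to PSME2, the subunits of PA28, was 394, 343 and 338% in sh-CFB against 280, 251 and 252% in sh-NC, and the groups did not overlap. The smallest p an exact two-sided permutation test can give here is 0.1.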
